A study of Rattus norvegicus with 4 samples.

Results

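The cytosolic ribosomal protein genes are described here in 4 cultures of NR8383, a rat cell line of alveolar macrophages. A gene belonged to the group where its array probe carried an accession that RefSeq names Rpl, Rps or Rplp with a number, or Rpsa, leaving out the S6 kinase genes and pseudogene symbols. That gave 91 of 16581 named genes, all annotated as protein coding, on 205 of 45598 probes and 828 of 58717 spots. They comprised 53 large subunit genes, 34 small subunit genes and 4 genes of the acidic stalk. By their symbols alone, 12 of the 91 were classed as additional copies, such as Rpl27al1. Rpl37l1 was classed so as well, although no Rpl37 was among the members. All 4 cultures (replicates 1 to 4) had been exposed for 4 h to titanium dioxide (TiO2, NRCWE001) at a dose of 3 cm2/cm2. The cells were at passage 20 and had been seeded 48 h before exposure, and the series' design text calls the replicates biological. Unexposed cells were not analysed here, and an effect of the particles can therefore not be read from any of the values. Each culture had its own one-colour array, so differences between cultures and between arrays cannot be told apart.

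A cytosolic ribosome holds a large and a small subunit, each built of ribosomal RNA and a fixed set of proteins that are needed in matched amounts. The messenger RNAs of these proteins are among the most abundant in growing cells, and in mammals they usually start with a C followed by a run of pyrimidines. This terminal oligopyrimidine tract, called TOP, lets the kinase mTOR and the RNA-binding protein LARP1 switch their translation on and off together. Macrophages draw on this machinery when they secrete proteins or take up material.

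The pyrimidine runs are shown first, because they are a sequence feature that many members carry and that the naming rule did not use. RefSeq promoters of build GRCr8 (250 bases before to 50 after the annotated start) were available for 73 of 91 members, as 74 entries because Rps27a has a second one. The windows below are printed 5′ to 3′ on the gene's strand, 39 bases before the start and 21 from it onward. Capitals mark the longest run of C and T that begins with C within 20 bases either side of the start. The first 4 pairs set a member against its paralog, and the other 6 are genes whose levels are described further on.
Rpl22 (chr5:168117922-168117981, plus strand): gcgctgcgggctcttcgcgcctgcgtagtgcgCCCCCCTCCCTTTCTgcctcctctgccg
Rpl22l1 (chr2:113683157-113683216, plus strand): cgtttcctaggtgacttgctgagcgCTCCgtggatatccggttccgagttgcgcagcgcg
Rps27 (chr2:177964586-177964645, minus strand): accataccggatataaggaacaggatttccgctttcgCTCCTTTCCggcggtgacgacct
Rps27l (chr8:76443619-76443678, plus strand): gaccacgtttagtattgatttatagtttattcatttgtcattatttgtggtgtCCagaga
Rpl3 (chr7:113507970-113508029, minus strand): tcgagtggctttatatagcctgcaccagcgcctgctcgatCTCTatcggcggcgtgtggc
Rpl3l (chr10:14258407-14258466, plus strand): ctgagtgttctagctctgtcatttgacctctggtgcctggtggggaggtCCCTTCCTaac
Rps4x (chrX:71342901-71342960, minus strand): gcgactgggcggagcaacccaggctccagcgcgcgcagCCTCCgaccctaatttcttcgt
Rps4y2 (chr4:183000874-183000933, plus strand): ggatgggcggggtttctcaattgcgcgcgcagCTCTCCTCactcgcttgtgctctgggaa
Rpl10 (chrX:157205811-157205870, plus strand): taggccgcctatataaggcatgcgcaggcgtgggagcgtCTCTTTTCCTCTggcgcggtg
Rplp1 (chr8:71290852-71290911, minus strand): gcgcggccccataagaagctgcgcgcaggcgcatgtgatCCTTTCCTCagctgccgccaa
Rplp0 (chr12:46718370-46718429, minus strand): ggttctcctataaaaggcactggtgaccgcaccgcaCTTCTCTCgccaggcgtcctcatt
Rps23 (chr2:23814478-23814537, plus strand): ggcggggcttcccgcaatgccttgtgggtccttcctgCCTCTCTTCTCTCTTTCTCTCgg
Rps6 (chr5:106420520-106420579, minus strand): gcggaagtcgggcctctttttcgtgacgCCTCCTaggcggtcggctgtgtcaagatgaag
Rpl5 (chr14:1995205-1995264, minus strand): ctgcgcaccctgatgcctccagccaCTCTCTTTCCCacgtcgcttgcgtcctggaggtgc
Several windows carry a long run at or next to the start. In Rpl10 and Rplp1 it begins at the first annotated base and holds 12 and 9 letters. Within the 20 bases searched, Rps23 has the longest run of all members, with 21 letters that begin 2 bases before the start. Runs that reach beyond the searched bases were cut there, so a longer run can be missed, as in Rpl7a. In the 4 pairs the members differ at the annotated start itself. Counted from the start onward, the unbroken run holds 8 letters in Rpl22 and none in Rpl22l1, and 7 in Rps27 and none in Rps27l. It holds 5 in Rpl3 (T first) and none in Rpl3l. The marked runs of Rpl22 and Rps27 begin 7 and 2 bases before the start. In Rps4x the run from the start holds 4 letters, against 1 in Rps4y2. Rpl3l has a run of 8 letters further inside, beginning 10 bases after the start. Rps6, whose protein is the classical substrate of the S6 kinases, has no pyrimidine at its annotated first base. Its marked run of 6 letters begins 11 bases before it. A longer run in the printed window of Rps6 begins further before the start, outside the 20 bases searched. Whether the annotated starts are those used in these cells was not tested.

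Over all entries, a C at the start followed without break to a run of at least 5 pyrimidines was found in 23 of 74 member promoters (31.1%, 95% Wilson interval 21.7 to 42.3), against 2.63% of all 33469 promoters of the table. A run of at least 8 that begins with C within 20 bases of the start was found in 43 of 74 (58.1%, interval 46.7 to 68.7), against 11.9% of all. The intervals cover counting error only. None of the 9 copies with a promoter entry had the run of 5 at the start, and 1 of the 9 had a run of 8 near it. That copy was Rpl36al1, named here for its small spread between arrays as well. Other letters were searched on both strands of the whole window. TATAA was found in 27.0% of member promoters and 26.2% of all, CCGGAAG in 27.0% and 8.75%, and CTTTCC in 47.3% and 26.4%. CTTTCC can lie inside a pyrimidine run, and so can part of the reverse strand of CCGGAAG.

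**Figure D1:**
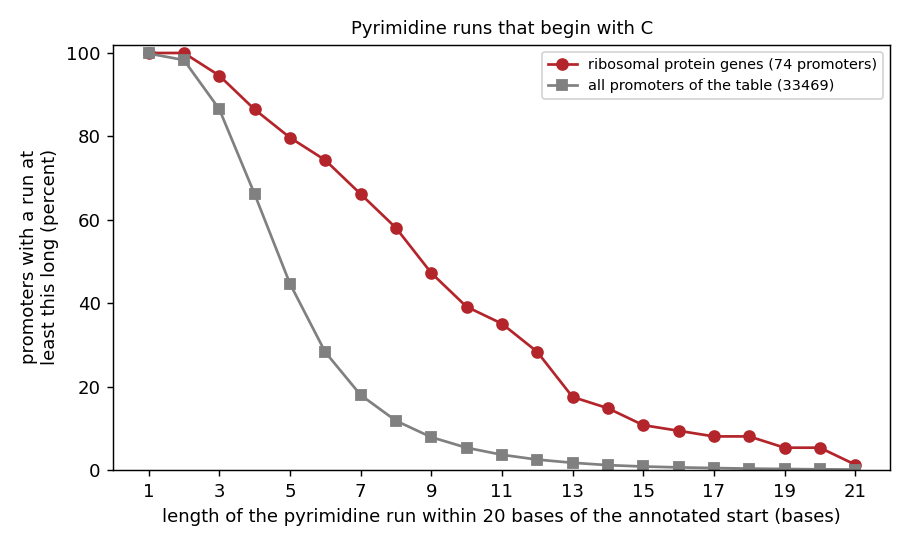
Share of promoters (percent, vertical axis) whose longest pyrimidine run beginning with C within 20 bases of the annotated start is at least as long as the value on the horizontal axis (bases). At 8 bases the 74 ribosomal protein promoters stand at 58.1% and all 33469 promoters at 11.9%.

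Ribosomal protein transcripts were detected almost completely in the exposed macrophages. Of the 91 genes, 87 had a probe well above background on all 4 arrays (95.6%), against 45.7% of all 16579 genes with a level, and no member was detected on only some of the arrays. The 4 without a signal well above background were the copies Rpl27l2, Rpl39l5 and Rps12l4 and the Rps4x paralog Rps4y2. By subunit, 51 of 53 large subunit genes, 32 of 34 small subunit genes and all 4 stalk genes were detected. Levels are given as log2 of the processed signal relative to the 75th percentile of the same array, for the brightest probe of a gene. On this scale the detected members lay between -4.23 and 9.36 on single arrays, and 74 of the 87 had a mean above 5, where the median of all tested genes was -0.04. Probes differ in how well they bind, so the level of one gene is not set against that of another.

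Signal strength and cell type markers were checked first on every array. Processed signals had a 75th percentile of 347 to 554 intensity units, over local backgrounds of 36 to 41 units, and no spot was saturated. Of 10 macrophage markers 9 were detected on all arrays, among them Cd68, Csf1r and Spi1, and Marco on none. No marker of lung epithelium among 8 was detected on all 4 arrays, and Sftpa1 and Krt18 were detected on 1 array each. The lymphocyte list had 1 of 4 (Nkg7), and the fibroblast and endothelium list 2 of 6 (Pecam1 and Cdh5).

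**Figure D2:**
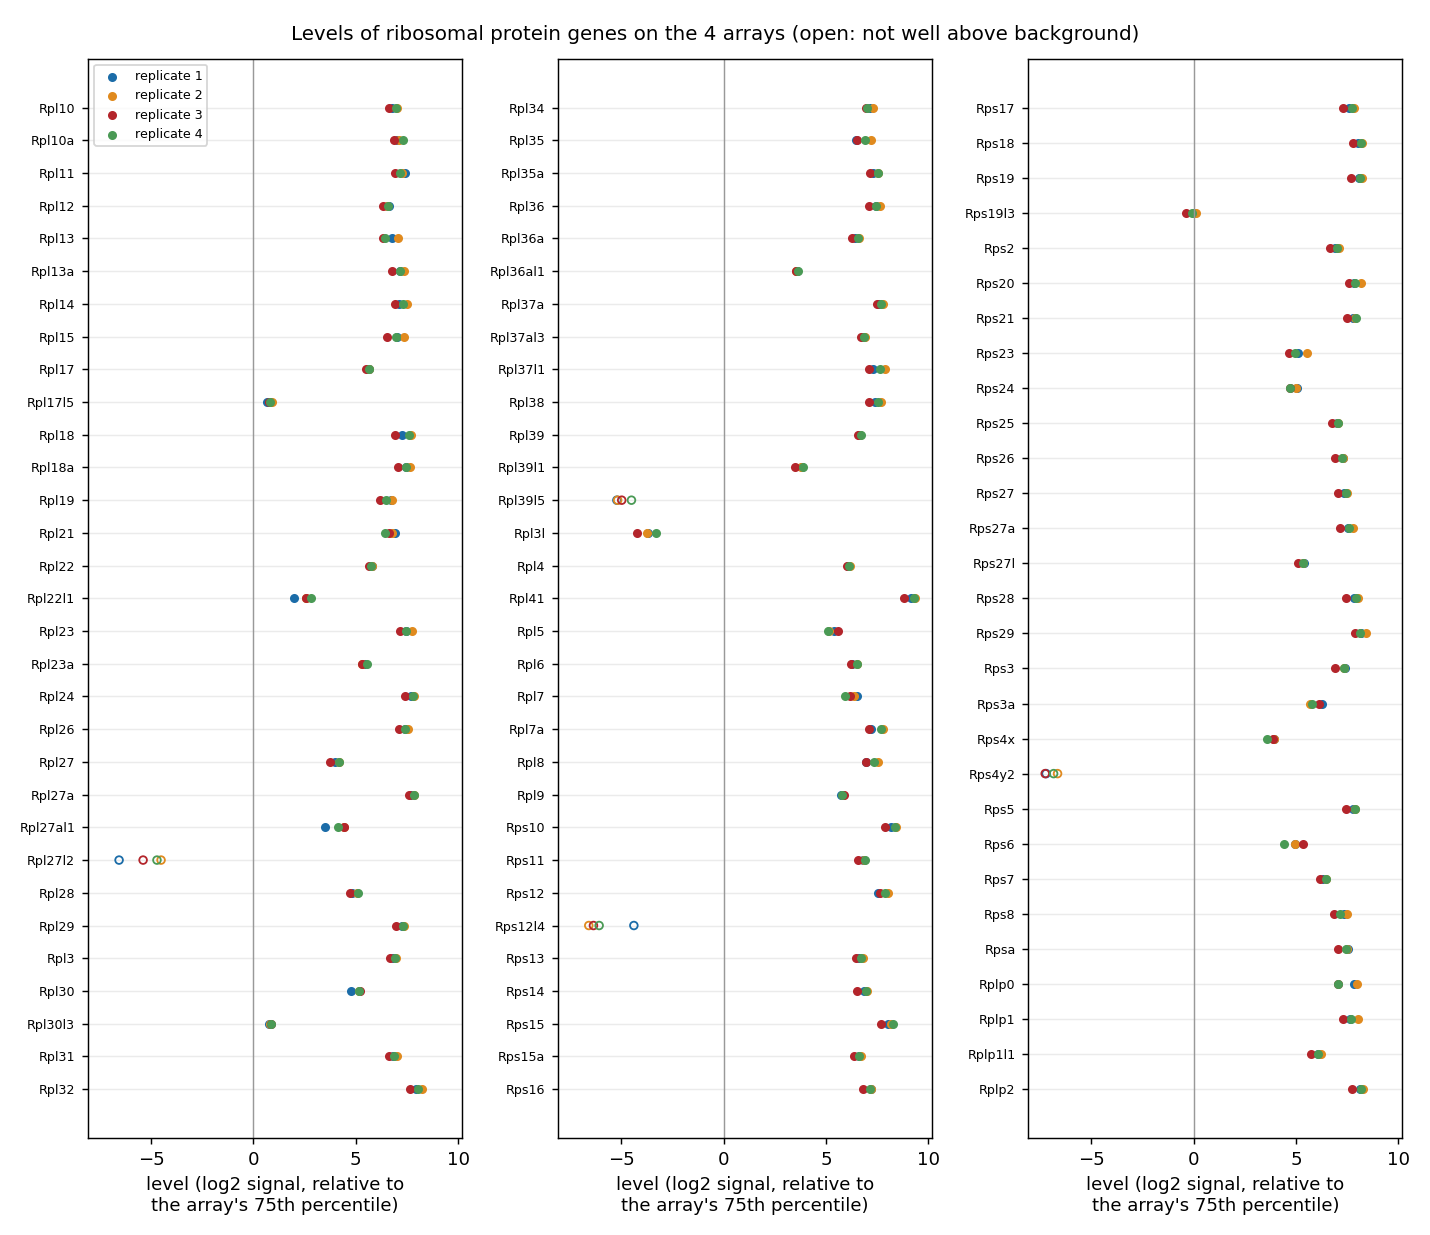
Level of each of the 91 genes on the 4 arrays (horizontal axis, log2 signal relative to the array's 75th percentile, 1 colour per replicate), grouped as large subunit, small subunit and stalk genes; open circles are probes not well above background. For most genes the 4 points lie close together, with the replicate 3 point on the left.

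The stalk is the flexible arm of the large subunit that recruits translation factors. Its base protein gene Rplp0, often used as a reference gene in PCR, lay at 7.82, 7.95, 7.05 and 7.03 on replicates 1 to 4. Replicates 1 and 2 were high and replicates 3 and 4 low, with 98139 and 85840 processed intensity units against 73649 and 53975. The highest array exceeded the lowest 1.90-fold, the largest such fold among the detected members, whose median was 1.39. Rplp0 was represented by 1 probe on 1 spot, and its spread (7.46 ± 0.49, SD, n = 4) did not pass the test against genes of like level (limma prior variance, adjusted p = 0.306). It did pass after quantile normalization (adjusted p = 0.0456) and without the filter on detection (0.0245), by the same limma test. The tail proteins that dimerise on it moved less between arrays, with Rplp1 at 7.65, 8.01, 7.30 and 7.66 and Rplp2 at 8.10, 8.29, 7.74 and 8.16. Both were lowest on replicate 3 and highest on replicate 2.

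Among the detected small subunit genes, Rps6 had the largest spread. It lay at 4.95, 4.97, 5.32 and 4.41 on replicates 1 to 4, so that replicate 3 was its highest array and replicate 4 its lowest. Its probe was printed on 10 spots, whose SD within an array was 0.21, 0.04, 0.04 and 0.05, against an SD of 0.37 between the array means. The adjusted p was 0.424 in limma's prior variance test, and 0.0456 after quantile normalization. Rps23, a protein of the decoding centre, lay at 5.07, 5.53, 4.66 and 4.93, highest on replicate 2 and lowest on replicate 3 (limma adjusted p = 0.475).

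The other small subunit genes picked for their roles shared their lowest array. Rps3, which lines the entry channel of the messenger RNA, lay at 7.36, 7.36, 6.88 and 7.35, a single low value on replicate 3. Rps20, which is ubiquitinated on collided ribosomes, lay at 7.83, 8.17, 7.59 and 7.89. Rps14 and Rps19, whose loss in humans impairs red cell formation, averaged 6.84 ± 0.22 and 8.01 ± 0.24 (SD, n = 4). Rps27a, which is made as a fusion with ubiquitin, averaged 7.50 ± 0.26, and Rpsa, also known as a laminin receptor precursor, 7.39 ± 0.22. All of these were lowest on replicate 3.

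In the large subunit, Rpl5 and Rpl11 form a particle with the smallest ribosomal RNA of that subunit and, when ribosome assembly stalls, bind the p53 regulator Mdm2. Their values are set side by side. Rpl5 lay at 5.38, 5.15, 5.59 and 5.08 and was highest on replicate 3, while Rpl11 lay at 7.41, 7.25, 6.93 and 7.14 and was lowest there. After cyclic loess, a scaling described below, both were lowest on replicate 4. The second Rpl5 probe, on 10 spots, lay at 3.15, 2.86, 3.42 and 2.88, again highest on replicate 3. Neither gene passed the test (limma adjusted p = 0.991 each). Rpl23 and Rpl26, also linked to p53 control, averaged 7.44 ± 0.24 and 7.37 ± 0.17 (SD, n = 4).

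Further large subunit genes were also lowest on replicate 3. Rpl3, near the catalytic centre, lay at 6.81, 6.95, 6.67 and 6.94. Rpl10, which joins the subunit late in its maturation, averaged 6.85 ± 0.18, Rpl13a 7.10 ± 0.25, Rpl29 7.23 ± 0.17 and Rpl38 7.43 ± 0.25 (SD, n = 4). Rpl38 is known from mouse embryos for a role in translating Hox messenger RNAs. Of the 19 genes chosen for their roles, 16 were lowest on replicate 3 (84.2%), against 45.3% of all tested genes and 87.2% of 243 other genes with a mean level above 5, and the exceptions were Rplp0, Rpl5 and Rps6.

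Paralogs replace a standard protein in some tissues or states, and most of those with a named probe were detected here. Rpl7l1, Rpl10l1 and Rpl26l1, listed as paralogs of Rpl7, Rpl10 and Rpl26, had no named probe and were not measured. Rpl3l, known from striated muscle, was detected at a low level of -3.69, -3.74, -4.23 and -3.32, while Rps4y2 was not well above background. Rpl22l1 lay at 2.00, 2.58, 2.57 and 2.81, low on replicate 1 alone, and Rpl22 at 5.77, 5.81, 5.66 and 5.72. The Rpl22l1 value came from 2 spots, whose SD was 0.50 on replicate 1 and 0.07, 0.21 and 0.01 on replicates 2 to 4. The second Rpl22l1 probe, at -1.57 on average, had an SD of 0.07 between arrays and so did not show the low value on replicate 1. Rps27l, known as a p53 target, averaged 5.29 ± 0.14 and Rps27 7.33 ± 0.21 (SD, n = 4). Rps4x lay at 3.93, 3.91, 3.85 and 3.59, lowest on replicate 4. Rpl36al1 lay at 3.61, 3.56, 3.55 and 3.63, the smallest SD of all detected members (0.04), with 10 spots per array. Its counterpart Rpl36a averaged 6.45 ± 0.15, and Rpl39 and Rpl39l1 averaged 6.62 ± 0.06 and 3.74 ± 0.16. Rpl7 averaged 6.26 ± 0.25, had 6 probes and was lowest on replicate 4.

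Probes of 1 gene could disagree. For Rpl28 and Rpl36a 1 probe was well above background on no array while others were on all 4. Among 55 members with several detected probes, the brightest and dimmest differed by a median of 1.40 (log2), and by 8.63 for Rpl15, named here after its values were seen. Ribosomal protein genes have many near-identical copies, and probe sequences were not used here, so a probe may also bind transcripts of a copy.

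Taken over the whole group, the members were low on replicate 3 and high on replicate 2. Their median deviation from the gene's own mean was 0.02, 0.15, -0.25 and 0.07 on replicates 1 to 4, against 0.00, 0.02, -0.08 and 0.05 over all 7570 tested genes. Of the 87 detected members 71 were lowest on replicate 3, against 45.3% of all tested genes, and 55 were highest on replicate 2, against 21.7%. Both held for 50 members, against 12.2% of all tested genes. Large and small subunit genes shared the order, with median deviations on replicate 3 of -0.21 for 51 large, -0.27 for 32 small and -0.35 for 4 stalk genes. Low values on replicate 3 went with brightness in general. Of 243 other genes with a mean level above 5, 212 were lowest on replicate 3 (87.2%), with a median deviation there of -0.21. Highest on replicate 2 were 63 of those 243 (25.9%), and 140 were highest on replicate 4, where 15 of the 87 members were. The group of bright genes was formed after the data had been seen.

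The difference depended on how the arrays were scaled. Cyclic loess, which adjusts the arrays to each other along the range of brightness, left median deviations of 0.03, 0.04, -0.03 and -0.04 for the members. Lowest on replicate 3 were then 31 of 87 members, against 36.7% of all tested genes, and highest on replicate 2 were 37, against 19.6%. The other genes with a level above 5 had a median of -0.02 on replicate 2 after loess. Without replicate 3 the members' median SD was 0.11, against 0.14 over all tested genes, while on all 4 arrays it was 0.21, against 0.16.

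**Figure D3:**
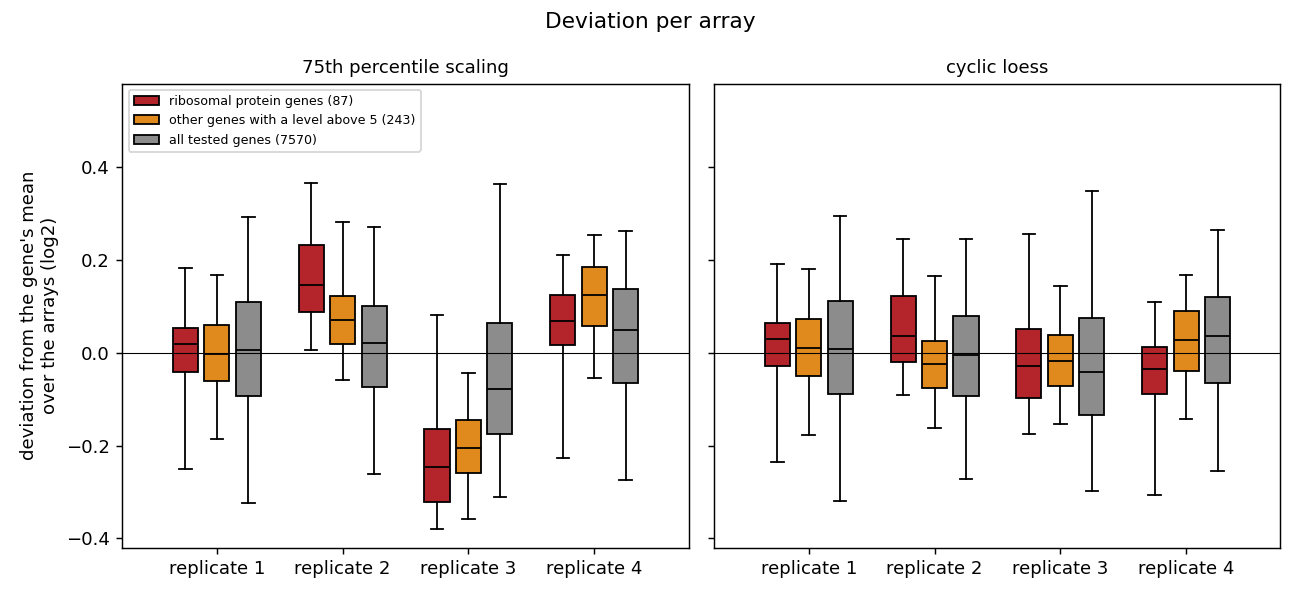
Deviation of each gene from its own mean over the 4 arrays (vertical axis, log2) for 87 ribosomal protein genes, 243 other genes with a mean level above 5 and 7570 tested genes, after 75th percentile scaling (left) and cyclic loess (right). Boxes span the quartiles with the median as a line, whiskers the 5th to 95th percentile; on the left the ribosomal and other bright genes lie low on replicate 3 (medians -0.25 and -0.21), and on the right the medians lie between -0.04 and 0.04.

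The spread of each member was tested against that of genes of like level. The test divided each gene's variance over the arrays by limma's trended, robust prior variance, and called 39 of 7570 genes at an adjusted p under 0.05 (0.515%) and 0 of the 87 members, a number near that share. Unadjusted, 5 members had a p under 0.05 (5.75%), against 6.67% of all tested genes. Both counts depended on the scaling. By the same limma test 5 members were called with normexp (2.75% of all genes), 2 after quantile normalization (0.251%) and 0 after cyclic loess (0.0925%). An unadjusted p under 0.05 was then found for 15 of the 87 members with normexp, 17 after quantile normalization and 18 after cyclic loess. The shares of all genes were 8.06%, 6.64% and 6.54%, so under these 3 scalings the members' share was the larger. Besides Rplp0, Rpl22l1 (limma adjusted p = 0.339), Rps6 and Rps23 the 5 members under 75th percentile scaling included Rpl27al1, which had the smallest adjusted p of the group (0.176). That copy lay at 3.51, 4.41, 4.43 and 4.12, low on replicate 1, from 1 probe on 1 spot in column 4 of the array. The members' median SD was 0.21, against 0.16 over all tested genes, and 0.10 against 0.15 after cyclic loess. For the 243 other genes with a mean level above 5 it was 0.175, and 0.091 after cyclic loess.

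The other detected members with the largest spread mostly followed the common order. Rpl18 lay at 7.28, 7.72, 6.92 and 7.61, Rpl7a at 7.19, 7.79, 7.10 and 7.67 and Rpl37l1 at 7.32, 7.88, 7.11 and 7.64. These 3 were high on replicates 2 and 4 and low on replicates 1 and 3. Rpl13 lay at 6.78, 7.06, 6.32 and 6.41, low on replicates 3 and 4. The smallest spreads besides Rpl36al1 belonged to Rpl30l3 (0.83 ± 0.05), Rpl39, Rpl9 (5.79 ± 0.06) and Rpl22 (SD, n = 4). For the 69 detected probes printed on 10 or more spots, the median SD between arrays was 0.165. Between the spots of such a probe it was 0.145 on replicate 1 and 0.0556, 0.0564 and 0.0721 on replicates 2 to 4.

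**Figure D4:**
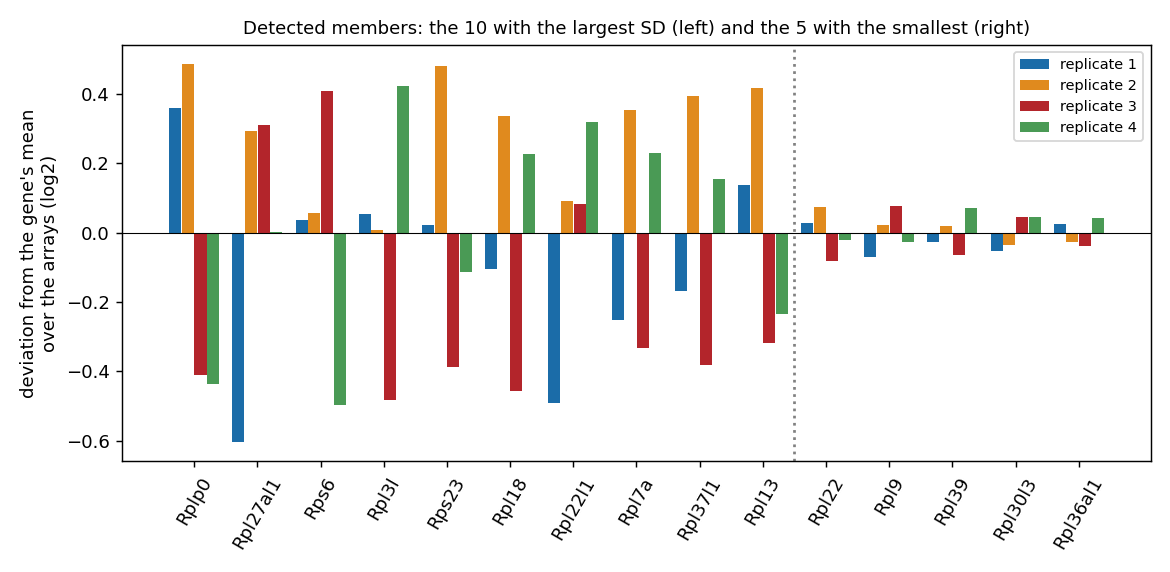
Deviation from the gene's own mean (vertical axis, log2) on each array, 1 bar per replicate, for the 10 members with the largest SD and the 5 with the smallest, among the 87 detected on all arrays. Rplp0 is above its mean on replicates 1 and 2 and below it on 3 and 4, Rps6 is highest on replicate 3, and the 5 genes on the right stay within 0.1 of their means.

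Genes that work with the ribosomal proteins were mostly detected. Of 18 other ribosomal, elongation and TOP genes 17 were detected on all arrays, and the initiation factor gene Eif2s3 on 3. Rack1, a scaffold on the small subunit, averaged 5.43 ± 0.18, and Fau, which codes for a ribosomal protein fused to a ubiquitin-like domain, 6.97 ± 0.20 (SD, n = 4). The initiation factor gene Eif3e had the largest SD among those 17 (0.02 ± 0.49) and was highest on replicate 3 (limma adjusted p = 0.0686). The list's median deviation on replicate 3 was -0.20.

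Of 28 ribosome assembly and ribosomal RNA transcription genes 26 were detected, while the polymerase I factor genes Taf1a and Taf1b were on no array. The nucleolar genes Ncl, Fbl and Nop56 averaged 2.69 ± 0.30, 5.31 ± 0.18 and 1.84 ± 0.15 (SD, n = 4), and the assembly factor gene Rrs1 had the largest SD among those 26 (-2.44 ± 0.52). Of 16 genes of the mTOR route to ribosomes 14 were detected, Rps6ka3 was detected on 2 arrays and Mycn on none. The kinase gene Mtor averaged -2.95 ± 0.13, and its partners Rptor and Mlst8 2.60 ± 0.13 and 0.14 ± 0.11. Eif4ebp2, a translation repressor that mTOR inactivates, had the largest SD among those 14 (0.91 ± 0.45, limma adjusted p = 0.0844) and was low on replicate 1. Genes of ribosome quality control were detected in 8 of 11 cases, among them the collision sensor gene Zfp598 (2.94 ± 0.13) and the rescue factor genes Pelo (2.32 ± 0.14) and Hbs1l (-1.69 ± 0.06). Rnf10, a ubiquitin ligase of small subunit proteins, had the largest SD of that list among the 8 detected on all arrays (2.40 ± 0.22). Nemf was detected on 3 arrays, Ascc3 on 1 and Ltn1 on none. In the same limma test none of the 17, 26, 14 and 8 tested genes of these 4 lists was called more variable, against 0.515% of all tested genes. Of them 1, 2, 1 and 0 had an unadjusted p under 0.05, against 6.67%.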

How the data were processed

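RNA of the 4 exposed cultures was measured on 4 arrays of 1 slide. The deposited intensity values are spot signals that Agilent Feature Extraction 11.0.1.1 had corrected for background and for trends across the array, per the file headers and the submitters' processing notes. Sample titles gave the group and the replicate number.

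Spots the scanner software flagged as non-uniform or as outliers of their probe were dropped (634 to 669 per array), log2 signals were scaled to each array's 75th percentile, and spots of a probe were averaged. Probes were named by accession through the RefSeq table of GRCr8 (21109 of 45598). The brightest probe represented a gene. A probe was detected where over 0.5 of its spots were well above background, and a gene where at least 1 probe was detected. The ending left out as pseudogene was read after the first 3 letters of a symbol, since read letter by letter it removes Rps2 to Rps29 and leaves 66 genes.

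Variance over 4 arrays (3 degrees of freedom) was tested in R 4.3.3 with limma (version 3.58.1) against a trended, robust prior (24.3 degrees of freedom), by the upper F tail with Benjamini-Hochberg adjustment over 7570 genes whose brightest probe was detected on all arrays. With 4 arrays, their number limits the precision. Alternatives were normexp (offset 50, median signals), quantile and cyclic loess normalization, another scale, the mean over probes, flagged spots kept, other priors, filters and flags, spots beyond column 72, and leaving out each replicate. The genes with 10-spot probes, the other reading of the rule and leaving out copies were added after seeing the data.

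Members, lists and tests were chosen with earlier results of these data known. The text names members of a list of roles, paralog pairs, members not detected on all arrays, the 10 largest and 5 smallest SDs, members called more variable, and those with a probe on all arrays and another on none. Of other lists it names the first 3 measured genes, those not detected on all arrays and the one with the largest SD, except 1 gene that is not reported here. Identity between paralog proteins was not computed, as protein sequences were not used here.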

Additional observations from a re-analysis of the deposited data

Results flagged for a closer look

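In 7 of the 87 detected members (8.05%) a single array lay far from its neighbours, with a Dixon ratio above the 95% critical value for 4 samples, against 5.46% of all 7570 tested genes, where chance gives about 5%. Replicate 3 was the low array in 6 of them. On it Rps3 lay at 6.88, with the other arrays at 7.35 to 7.36, Rps16 at 6.83 (others 7.13 to 7.20), Rps25 at 6.77 (others 7.01 to 7.04) and Rps26 at 6.92 (others 7.24 to 7.28). Rpl17 lay at 5.51 there (others 5.65 to 5.66), and Rps27l at 5.09 (others 5.34 to 5.38). Rpl30 was low on replicate 1, at 4.79, with the other arrays at 5.16 to 5.20. These values hold for 75th percentile scaling and for the brightest probe of each gene. Other probes of these genes were lowest on the same array, but not always as far from the rest. The other Rps16 probe lay at 5.75, 6.06, 5.67 and 6.10 and the other Rps3 probe at 7.21, 7.31, 6.97 and 7.46 on replicates 1 to 4. The other Rps26 probe lay at 6.19, 6.25, 5.65 and 6.16. Rps27l had no other probe. After cyclic loess Rps3 and Rps27l were lowest on replicate 3 and Rpl30 on replicate 1. Rps27l then lay at 5.39, 5.27, 5.25 and 5.25 on replicates 1 to 4, so its low value no longer stood apart. Rps16, Rps25 and Rps26 were lowest on replicate 4, and Rpl17 was lowest on replicate 2 and highest on replicate 3. Rps16, Rps25, Rps26, Rpl17 and Rpl30 are named after their values were seen.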

How the results depend on the processing

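The count of 87 detected members stayed at 87 to 87 without each replicate, and the lenient detection flag and the demand of 1 array changed it by under 1.5 times. No member was called more variable with any replicate left out (0 to 0). Few genes were called at all. Of all tested genes, 32 of 7644 and 77 of 7725 were called without replicates 1 and 2. Without replicates 3 and 4 it was 10 of 7580 and 16 of 7660. Normexp called 5 (208 of all genes): Rpl35, Rpl27al1, Rpl22l1, Rpl8 and Rpl37l1, with limma adjusted p of 0.00104 to 0.0111. The brightest probes of these 5 lay in columns 4 to 20 of the array. Rpl3 and Rpl10a, in columns 2 and 7, were not called. The SD of Rpl3 was nevertheless larger with normexp, at 0.367 against 0.130 under 75th percentile scaling (limma adjusted p = 0.308 and 0.991). Under 75th percentile scaling, 37 members had all spots of their brightest probe beyond column 72. Of these 0 were called, against 5 of all 3984 genes tested there. Lowest on replicate 3 were 36 of them, and 1 was lowest on replicate 1, against 71 and 9 of all 87. Among all tested genes, wherever their spots lay, 45.3% were lowest on replicate 3. The share for all genes beyond column 72 is not given here. Quantile normalization called 2 (19 of all), Rplp0 and Rps6, both at 0.0456, and no filter on detection called 2 (127 of all), Rplp0 and Rpl27al1, at 0.0245 and 0.044. Cyclic loess called none (7 of all), with 18 of the 87 members at an unadjusted p under 0.05, against 6.54% of all genes. The members' median SD was 0.114 to 0.231 with a replicate left out, the lowest without replicate 3, 0.0868 after quantile normalization and 0.0963 after cyclic loess. Their median deviation on replicate 3 was -0.248 to -0.195 with another replicate left out, but -0.00773 after quantile normalization and -0.0288 after cyclic loess. On the other arrays the ranges were -0.0788 to 0.0546 on replicate 1, 0.0872 to 0.184 on replicate 2 and -0.00218 to 0.122 on replicate 4, where the sign also turned after quantile normalization (-0.00401) and cyclic loess (-0.0354). The share of promoters with a pyrimidine run was 31.1% at the annotated start and 58.1% within 20 bases of it. The causes of these changes were not tested. No paired analysis was possible because all samples belong to 1 group. Naming probes by a gene name column was not run, since the files used here were named by accession. Signal over background limits Rpl27l2, Rpl39l5, Rps12l4 and Rps4y2 to a statement on detection.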
